A study of Bos taurus with 15 samples.

Results

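Glutamine and the branched-chain amino acids leucine, isoleucine and valine are linked in skeletal muscle, and 9 genes of that link were followed in cattle given the glucocorticoid prednisolone. They are GLUL, which makes glutamine; BCAT2, BCKDHA, BCKDHB and BCKDK, which start and control branched-chain amino acid breakdown; GOT1 and GOT2, which exchange amino groups with aspartate; ASNS, which makes asparagine; and SLC38A2, which carries glutamine and other small neutral amino acids into the cell. The genes were chosen by function, with earlier results of these data known. Their probes were found by gene name, by gene number or by the symbol in the probe's description, and a gene with more than 1 probe was represented by the brightest. This gave 10 of the 21475 probes of the array, and 9 of the 15464 named genes that could be tested. BCKDK is LOC505005 and ASNS is LOC514209 in the array's own naming.

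The study set 8 biceps brachii samples of prednisolone-treated cattle (P25 to P32) against 7 control samples (C17, C18 and C20 to C24), each hybridised to its own array with 1 dye. The treated animals received 30 mg of prednisolone per head per day by mouth for 35 days. Each control sample is labelled as a control, but the treatment field of the controls describes regimens of the growth promoters Finaplix and Revalor and of dexamethasone, and no regimen is tied to a control animal. Control RNA was extracted with a column kit alone, whereas TRIzol and then a column cleanup were used for the treated samples, so extraction and treatment cannot be told apart in any comparison below. No strain, age or housing is given in the labels. Each sample was taken as 1 animal, and p-values of group differences weigh the difference against the spread between these samples.

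Muscle burns branched-chain amino acids and exports much of their nitrogen as glutamine. BCAT2 moves the amino group to 2-oxoglutarate in the mitochondrion and forms glutamate, from which GLUL makes glutamine with ammonia. The remaining keto acids are broken down by the branched-chain keto acid dehydrogenase complex, whose E1 subunits are encoded by BCKDHA and BCKDHB, and which the kinase BCKDK switches off by phosphorylation. Glucocorticoids are known to raise glutamine synthetase activity in muscle, and the glucocorticoid-induced factor KLF15 is known to raise BCAT2 expression there. ASNS and SLC38A2 are known targets of ATF4, the transcription factor of the amino acid response.

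The arrays carried usable signal for every one of these genes. All 9 representative probes had a value on all 15 arrays, were well above background on each of the 8 treated arrays, and were saturated on 0 of them. The second BCAT2 probe was not well above background on any of the 8. Between 72.1% (C17) and 87.4% (C20) of the 42990 spots had a value. All 12 measured skeletal muscle fibre markers of 16 listed were well above background on all treated arrays, and their summed intensity ranged from 2481130 to 3007160 in controls and from 2374880 to 2931570 in treated animals. Marker genes of other tissues gave high signal on some arrays. The testis germ cell score, a mean over marker genes in log2 units centred on all arrays, was highest on C20 (4.66) and P31 (3.89), and the thymocyte score on C17 (4.23), P30 (3.12) and P32 (2.50). Scores used only markers with a value on all arrays, 10 for testis germ cells, 9 for thymocytes and 6 for hepatocytes. Of 12 measured thymocyte markers, 7 were well above background on all treated arrays and RAG1 on none. Point estimates were lower in treated animals for 16 of 17 testis germ cell markers (median -1.91) and 10 of 12 muscle fibre markers (median -0.11), and higher for 14 of 15 hepatocyte markers (median 0.97), with 0 of these passing the adjusted test. The part of these shifts in the group differences below was not tested, beyond the values with marker scores as covariates. Results were therefore also computed without C17, C20 and P31, while P30 and P32 were kept in that setting.

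Prednisolone treatment was accompanied by no detectable change in any of the 9 genes. In limma's moderated test and its Benjamini-Hochberg adjustment across the probes tested, 0 of 9 passed an adjusted p of 0.05, beside 0 of 15464 genes (0.0%). At an unadjusted p under 0.05 there were also 0 of 9, beside 3.21% of all genes (1.62% higher and 1.59% lower in treated animals). The 2 groups overlapped for all 9 genes, whereas 0.226% of all genes had no overlap. Adjusted p-values of the 9 genes ran from 0.993 to 0.998, and two-sided exact permutation p-values over the 6435 splits of the animals from 0.176 to 0.889, where the smallest possible is 0.000155. Each of the 9 intervals (95%) of the group difference excluded a 2-fold rise and a 2-fold fall, with half-widths from 0.20 to 0.60 on the log2 scale. For ASNS the 2-fold fall was not excluded in 10 of the 29 alternatives, 9 of which left out 1 animal, with a lower bound down to -1.11 without P25 and P26, while the other 8 genes stayed within 2-fold in all of theirs. The point estimate was below 0 for 7 of the 9 genes and for 47.8% of all genes, and its median was -0.083 over the 9 genes and 0.010 over all genes. In a whole muscle sample, fewer cells of a type and less RNA per cell cannot be told apart.

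**Figure D1:**
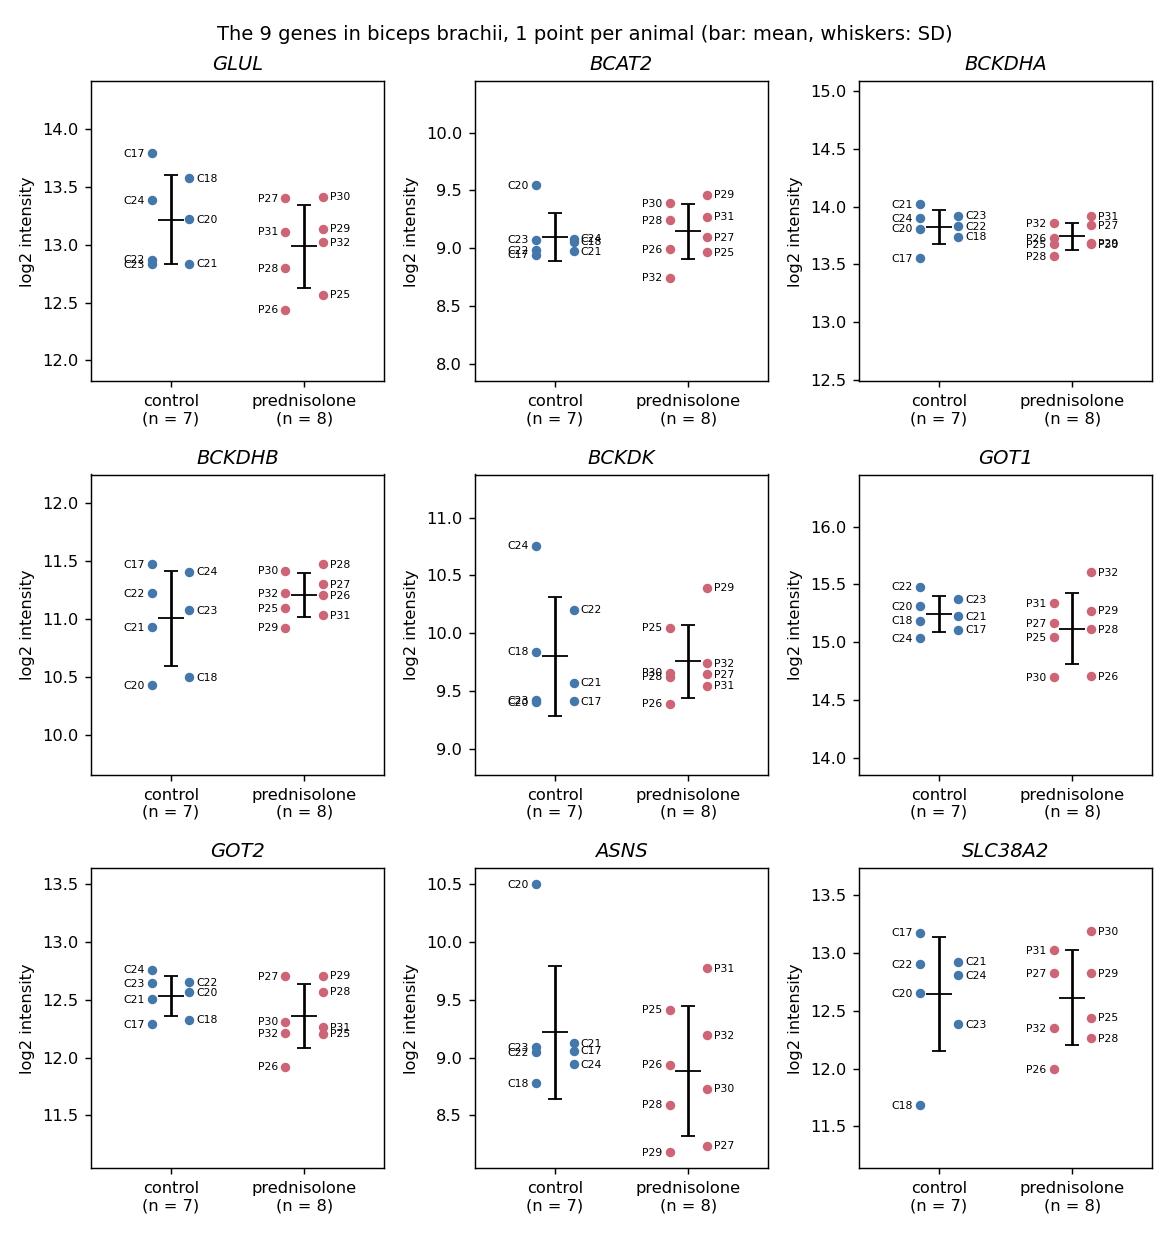
Log2 intensity of the 9 genes on each array, with 1 point per animal, controls in blue (n = 7) and prednisolone-treated animals in red (n = 8); bars are group means and whiskers are SD. Every panel spans the same log2 range, so that the wide scatter of ASNS (animal SD 0.57) can be set against the narrow one of BCKDHA (animal SD 0.13).

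Glutamine synthetase, encoded by GLUL, forms glutamine from glutamate and ammonia. GLUL log2 intensity ran from 12.83 (C23) through a median of 13.22 to 13.80 (C17) in controls, and from 12.44 (P26) through 13.07 to 13.42 (P30) in treated animals. Treated animals lay on both sides of the control median, 6 below and 2 above it, and 5 of the 8 fell inside the control range. The group means were 13.22 ± 0.39 (SD, n = 7) and 12.99 ± 0.36 (SD, n = 8). Their difference of -0.23 (95% interval -0.64 to 0.18, limma adjusted p = 0.993) did not exceed the spread between animals, and the upper bound of the interval corresponds to a treated level 1.13 times that of controls.

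The GLUL estimate leaned on few animals at each end. It was -0.13 without C17, and -0.069 without P25 and P26, the 2 animals with the lowest GLUL values of all 15, whose arrays were on the same slide. Across animals, with each group centred on its mean, GLUL had a negative correlation with the hepatocyte score (Pearson r = -0.62, permutation p = 0.0169; Spearman rho = -0.67, permutation p = 0.0107), but neither passed after adjustment over the 27 gene and score pairs computed (adjusted p = 0.228 and 0.289). The relation had the same sign in controls (r = -0.68) and in treated animals (r = -0.62), and r was -0.49 without P26 and P28, the animals with the most extreme scores. Of 16 hepatocyte markers 15 were measured, 6 of them well above background on all treated arrays, and the score used the 6 with a value on all arrays. The summed intensity of the 15 ranged from 1048 to 3933 in controls and from 1324 to 6282 in treated animals, with the maximum on P26. With the testis, thymocyte and hepatocyte scores as covariates the GLUL difference was -0.079. The part of these transcripts in the GLUL values was not tested.

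BCAT2, the mitochondrial aminotransferase that takes the amino group from branched-chain amino acids, was nearly level between groups. Control values ran from 8.94 (C17) through a median of 9.06 to 9.55 (C20), and treated values from 8.75 (P32) through 9.17 to 9.46 (P29). Apart from C20, the controls lay within a narrow band up to 9.08 (C24), while treated animals were spread on both sides of it, and 7 of 8 fell inside the full control range. The means were 9.09 ± 0.21 (SD, n = 7) and 9.15 ± 0.24 (SD, n = 8), with a difference of 0.052 (95% interval -0.22 to 0.33, limma adjusted p = 0.993). It was 0.13 without C20 and 0.007 without P29. The second BCAT2 probe had values on 6 control and 5 treated arrays, with means of 3.58 and 2.59 close to background, so no fold is given for it.

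BCKDHA, the E1 alpha subunit of the keto acid dehydrogenase complex, varied least of the 9 genes. It ran from 13.55 (C17) through 13.83 to 14.02 (C21) in controls and from 13.57 (P28) through 13.70 to 13.92 (P31) in treated animals. All 8 treated animals lay inside the control range, and the highest animal of all 15 exceeded the lowest by 1.38-fold. The means of 13.83 ± 0.15 (SD, n = 7) and 13.74 ± 0.12 (SD, n = 8) differed by -0.083 (95% interval -0.28 to 0.12, limma adjusted p = 0.993), which bounds the treated level between 0.822 and 1.08 times the control level.

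BCKDHB, the E1 beta subunit, pointed the other way without passing the test. Controls ran from 10.43 (C20) through 11.08 to 11.47 (C17), and treated animals from 10.92 (P29) through 11.22 to 11.47 (P28). The treated animals crowded into the upper part of the control range, with 6 of 8 above the control median, and the lowest control values were those of C20 and C18 (10.50). The means were 11.00 ± 0.41 (SD, n = 7) and 11.21 ± 0.19 (SD, n = 8), with a difference of 0.20 (95% interval -0.15 to 0.56, limma adjusted p = 0.993). The control SD was 2.20 times the treated SD. Without C20 the difference was 0.11, and without C17 it was 0.28.

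BCKDK, the kinase that inactivates the complex, had a few high animals in each group. Controls ran from 9.40 (C20) through 9.57 to 10.76 (C24) and treated animals from 9.39 (P26) through 9.65 to 10.39 (P29). Most animals of both groups lay close together, with C24, P29 and C22 (10.20) above them. The means of 9.80 ± 0.51 (SD, n = 7) and 9.76 ± 0.32 (SD, n = 8) differed by -0.046 (95% interval -0.50 to 0.41, limma adjusted p = 0.995), whereas the medians differed by 0.082 in the other direction. The difference of means turned to 0.11 without C24, 0.022 without C22 and 0.0068 without P26, and was -0.14 without P29.

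Other genes act directly on the same complex. PPM1K, the phosphatase that reverses the action of BCKDK, averaged 7.51 ± 0.52 (SD, n = 7) in controls and, in the treated group, 7.99 ± 0.32 (SD, n = 8), with 5 treated animals above and 3 below the control median. Its difference of 0.48 (95% interval 0.015 to 0.93, unadjusted p = 0.044) failed the adjustment in limma (adjusted p = 0.993), and ranged from 0.37 to 0.57 when 1 animal at a time was left out. The lowest PPM1K values were those of the controls C20 (6.85), C18 (6.94) and C17 (7.09). The other controls, from 7.85 (C23) to 8.08 (C24), lay inside the treated range of 7.69 (P31) to 8.48 (P25). DBT, the E2 core of the complex, had means of 8.26 ± 0.50 (SD, n = 7) and 8.47 ± 0.40 (SD, n = 8), with a difference of 0.21 (95% interval -0.27 to 0.69). BCAT1, the cytosolic relative of BCAT2, exceeded background clearly on 2 treated arrays and was measured in 5 control and 6 treated animals, with its highest value on C17 (5.52).

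**Figure D2:**
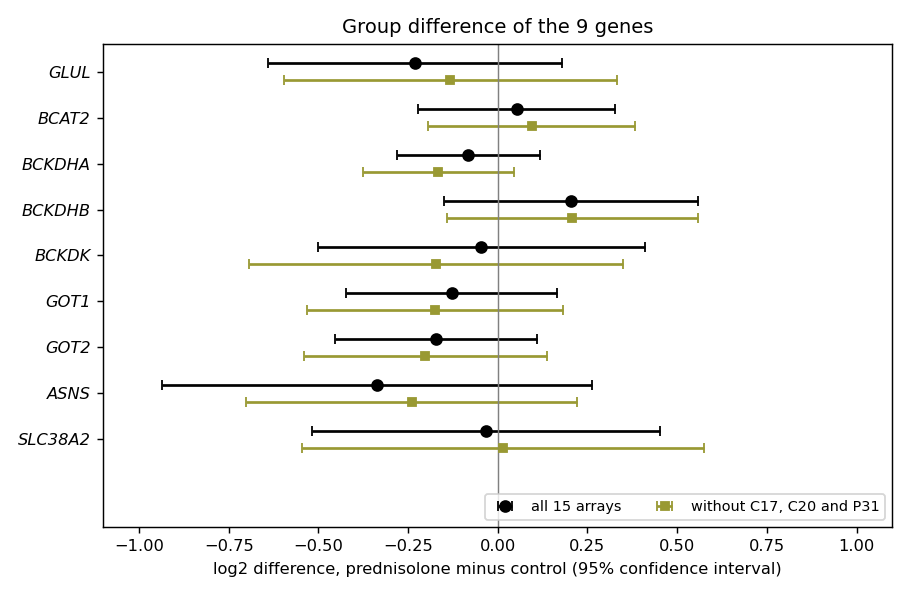
Group difference (prednisolone minus control, log2) of the 9 genes with its 95% confidence interval, for all 15 arrays (black circles) and without C17, C20 and P31 (olive squares). Every interval includes 0 in both sets, and the widest with all arrays is that of ASNS (-0.94 to 0.26).

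GOT1, the cytosolic aspartate aminotransferase, was more spread in treated animals. Controls ran from 15.03 (C24) through 15.23 to 15.48 (C22), and treated animals from 14.70 (P30) through 15.14 to 15.61 (P32). The treated group reached both below and above the control range, with P26 and P30 at the low end, and 5 of 8 inside it. The means were 15.25 ± 0.15 (SD, n = 7) and 15.12 ± 0.31 (SD, n = 8), with a difference of -0.13 (95% interval -0.42 to 0.17, limma adjusted p = 0.993). The treated SD was 2.0 times the control SD, a ratio for which no test was run. The difference ranged from -0.20 without P32 to -0.068 without P30.

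GOT2, the mitochondrial aspartate aminotransferase, had the smallest p-value of the 9 genes, though far from any threshold. Controls ran from 12.29 (C17) through 12.57 to 12.76 (C24) and treated animals from 11.92 (P26) through 12.29 to 12.71 (P29). Treated animals split into a group at or above 12.57 (P27, P28 and P29) and a lower one from 12.31 (P30) downward, so that 4 of 8 fell inside the control range. The means of 12.53 ± 0.17 (SD, n = 7) and 12.36 ± 0.28 (SD, n = 8) differed by -0.17 (95% interval -0.45 to 0.11, unadjusted p = 0.211, limma adjusted p = 0.993, two-sided exact permutation p = 0.176). Leaving out P29 gave -0.22 and leaving out P26 gave -0.11.

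ASNS, asparagine synthetase, varied most among animals. Controls ran from 8.78 (C18) through a median of 9.06 to 10.50 (C20) and treated animals from 8.18 (P29) through 8.84 to 9.78 (P31). The other 6 controls lay between 8.78 and 9.12 (C21), and the treated animals were scattered below and above that band. The means were 9.22 ± 0.58 (SD, n = 7) and 8.88 ± 0.56 (SD, n = 8), with the largest estimate of the 9 genes, -0.34 (95% interval -0.94 to 0.26, limma adjusted p = 0.993). It was -0.12 without C20 and -0.46 without P31.

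The animals with the highest ASNS in each group, C20 and P31, were also those with the highest testis germ cell scores. Over the 15 animals, with groups centred, ASNS correlated with that score at r = 0.63 (permutation p = 0.0144, adjusted p = 0.228 over 27 pairs; Spearman rho = 0.49, permutation p = 0.069). The relation rested on those 2 animals, since r was 0.13 without them. All 17 testis germ cell markers were measured, 4 of them well above background on all treated arrays and PRM2 on none. Their summed intensity ranged from 3299 to 387388 (C20) in controls and from 736 to 265602 (P31) in treated animals. C20 and P31 were the highest of their groups for 10.9% of the 11317 genes with a value on all arrays and for 1 of the 9 genes, ASNS. The ASNS difference was -0.25 without both animals and -0.069 with the 3 marker scores as covariates. The part of germ cell transcripts in the ASNS values was not tested.

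SLC38A2, the sodium-coupled transporter known as SNAT2, did not separate the groups. Controls ran from 11.68 (C18) through 12.81 to 13.18 (C17) and treated animals from 12.00 (P26) through 12.63 to 13.19 (P30). C18 stood at the bottom of all 15 animals, and treated animals fell evenly around the control median, 4 below and 4 above. The means of 12.65 ± 0.49 (SD, n = 7) and 12.61 ± 0.41 (SD, n = 8) differed by -0.033 (95% interval -0.52 to 0.45, limma adjusted p = 0.998). The sign was positive when C17, C21, C22, P26, P28 or P32 was left out, and the difference ranged from -0.19 without C18 to 0.055 without P26.

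**Figure D3:**
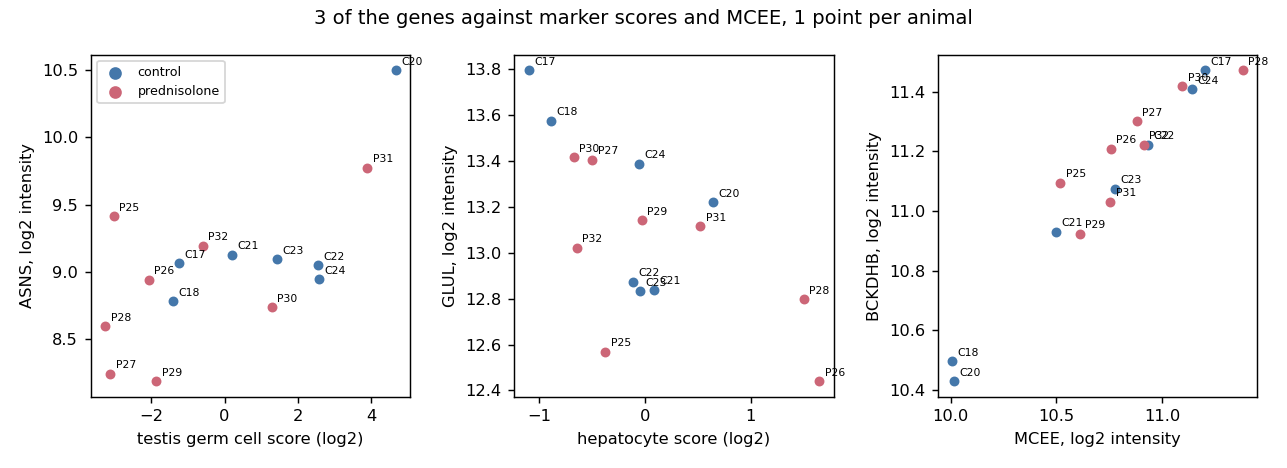
Log2 intensity of ASNS against the testis germ cell score, of GLUL against the hepatocyte score, and of BCKDHB against MCEE, with 1 labelled point per animal, controls in blue and treated animals in red. C20 and P31 stand apart in the ASNS panel, GLUL falls toward P26 and P28, and the BCKDHB points follow MCEE in both groups (r = 0.97 over 15 arrays with groups centred).

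The spread between animals was larger than the measurement error for each of the 9 genes. Each of the 10 probes was printed as 2 spots per array, and the SD between duplicate spots had a median of 0.051 over the 9 genes, against a median of 0.31 between animals within groups. Over the 10052 bright genes, those whose probe exceeded background clearly on each treated array, the medians were 0.084 and 0.34. Duplicate spots accounted for 0.238% of the animal variance of ASNS and for 0.942% of that of GLUL, but for 7.68% of that of BCKDHA and 19.0% of that of BCAT2. These values cover the error between spots of an array and not that of extraction, labelling or hybridisation.

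The genes fell at different points of the range of animal spread seen in this muscle. BCKDHA, with an animal SD of 0.13, was at the 1.13 percentile of the bright genes, BCAT2 (0.23) at the 16.5 percentile, GOT2 (0.24) at the 19.3 percentile and GOT1 (0.25) at the 23.5 percentile. BCKDHB (0.31), GLUL (0.37), BCKDK (0.42) and SLC38A2 (0.45) lay between the 42.1 and 72.4 percentiles, and ASNS (0.57) at the 84.0 percentile. The highest of the 15 animals exceeded the lowest by 4.99-fold for ASNS, 2.85-fold for SLC38A2, 2.58-fold for BCKDK and 2.56-fold for GLUL, and by 1.74-fold for BCAT2. The E1 subunits BCKDHA and BCKDHB had fold ranges of 1.38 and 2.06, a difference for which no test was run.

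**Figure D4:**
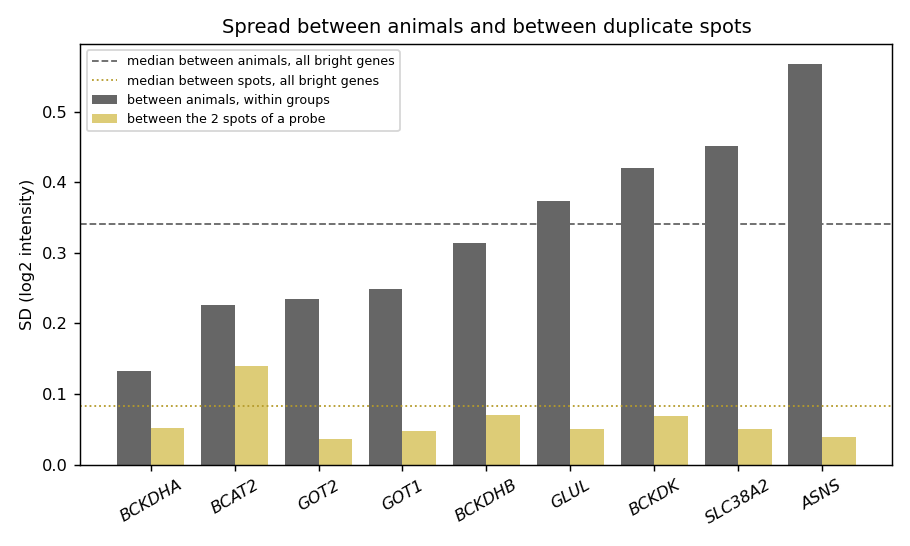
SD of log2 intensity between animals within groups (grey bars) and between the 2 spots of a probe (yellow bars) for the 9 genes, ordered by animal SD; lines mark the medians over all bright genes (0.34 dashed, 0.084 dotted). Animal SD rises from 0.13 for BCKDHA to 0.57 for ASNS while spot SD is highest for BCAT2 (0.14).

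Correlations between the 9 genes across animals did not pass the test. With groups centred, the 36 pairs had Pearson correlations from -0.40 to 0.47 with a median of 0.094, 25 positive and 11 negative. No pair passed an adjusted p of 0.05 in the permutation test, and 0 had an unadjusted p under 0.05 by Pearson or Spearman correlation. The strongest was BCKDK with GOT2 (r = 0.47, permutation p = 0.056, adjusted p = 0.863; rho = 0.36), and it fell to 0.16 without C24 and P29.

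The closest companions of each gene were sought among 11316 other genes, by the correlation over 15 arrays with groups centred and without a test. With so many genes and 15 arrays, the highest correlation is large even between unrelated genes, so closeness alone shows no link. The array intensities share labelling, scaling and tissue makeup, which such correlations include. BCKDHB was followed most closely by MCEE, methylmalonyl-CoA epimerase (r = 0.97), an enzyme further down the breakdown of valine and isoleucine, and by NDUFS4, a subunit of respiratory complex I (r = 0.94). MCEE ran from 10.01 to 11.20 in controls and from 10.52 to 11.38 in treated animals, with C18 and C20 lowest as for BCKDHB. The correlation of BCKDHB with MCEE was 0.997 in controls and 0.877 in treated animals, and 30 genes correlated with BCKDHB above 0.9.

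Companions of the other genes were of mixed kinds. GOT2 was closest to IDH3G, a subunit of the citric acid cycle enzyme isocitrate dehydrogenase (r = 0.94), and to MISP3 (0.94). BCAT2 was closest to PLEKHC1 (0.92) and SUPT20H (0.90), and ASNS to REEP4 (0.91) and CDK20 (0.90). C20 and P31 were the highest of their groups for REEP4 (11.80 and 11.15) and CDK20 (9.85 and 9.47), as for ASNS. They were also the highest for SUPT20H (5.73 and 5.65). The part of these 2 animals in the correlations was not tested. GOT1 was closest to the pyruvate dehydrogenase kinase PDK2 (0.80, with 0.50 in controls and 0.86 in treated animals). GLUL was closest to the adrenergic receptor ADRA1B (0.84) and USP53 (0.83), with ADRA1B well above background on 5 of 8 treated arrays. BCKDK was closest to the mitochondrially encoded ND5 (0.85) and to COPS2 (0.82, with 0.94 in controls and 0.51 in treated animals). SLC38A2 was closest to PALS1 (0.81), and BCKDHA to LOC613321 (0.77) and SYMPK (0.75).

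The wider pathways were described by lists of genes around the 9. In branched-chain amino acid catabolism, 23 other genes were measured of 28 listed (MCCC2 was not), of which 0 passed the adjusted test. In that list 19 point estimates were above 0 and 4 below, with a median difference of 0.13 beside 0.010 over all genes. PPM1K had the largest estimate and was the 1 gene of the 23 at an unadjusted p under 0.05, beside 3.21% of all genes. PCCA, a subunit of propionyl-CoA carboxylase, followed with means of 5.86 ± 0.17 (SD, n = 7) and 6.14 ± 0.28 (SD, n = 8) (difference 0.28, unadjusted p = 0.052, limma adjusted p = 0.993). Smaller estimates were those of AUH (0.24), HIBCH (0.23), MCEE (0.21), HIBADH (0.19), ECHS1 (0.16) and ACADSB (0.15), which catalyse later steps, and those of DLD (-0.052) and PCCB (-0.057) were below 0. The other 2 estimates below 0 were those of BCAT1 and of ALDH6A1, an enzyme of valine breakdown (-0.16), which were well above background on 2 and 3 treated arrays.

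Among the 25 measured amino acid transporters other than SLC38A2, 12 estimates were above 0 and 13 below, with a median of -0.008, and 0 passed. SLC1A5, a glutamine transporter also known as ASCT2, ran from 6.51 (C24) through 8.23 to 9.20 (C22) in controls and from 7.94 (P28) through 8.99 to 9.50 (P31) in treated animals. The groups overlapped. Of the treated values 7 of 8 exceeded the control median, and C24 was lowest of all. The difference was 0.81 (95% interval 0.072 to 1.55, unadjusted p = 0.034, limma adjusted p = 0.993), 0.54 without C24 and 0.99 without C22. The related neutral amino acid transporter SLC1A4 had means of 5.10 ± 0.30 (SD, n = 7) and 5.60 ± 0.45 (SD, n = 8), a difference of 0.50 (unadjusted p = 0.023, limma adjusted p = 0.993) and likewise 7 of 8 treated values over the median of controls. SLC38A7 had an unadjusted p under 0.05 but was well above background on only 2 of the 8 arrays of treated animals. These 3 of the 25 transporters were at that level, all higher in treated animals. Over all genes the share was 3.21%, with 1.62% higher in treated animals.

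SLC7A5, a leucine importer of the large neutral amino acid system, had means of 6.71 ± 0.94 (SD, n = 7) and 6.42 ± 1.34 (SD, n = 8), with its highest values on C20 (8.68) and P31 (8.83), the animals with the highest ASNS. SLC38A1, a close relative of SLC38A2, had no treated array well above background and is given no fold.

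**Figure D5:**
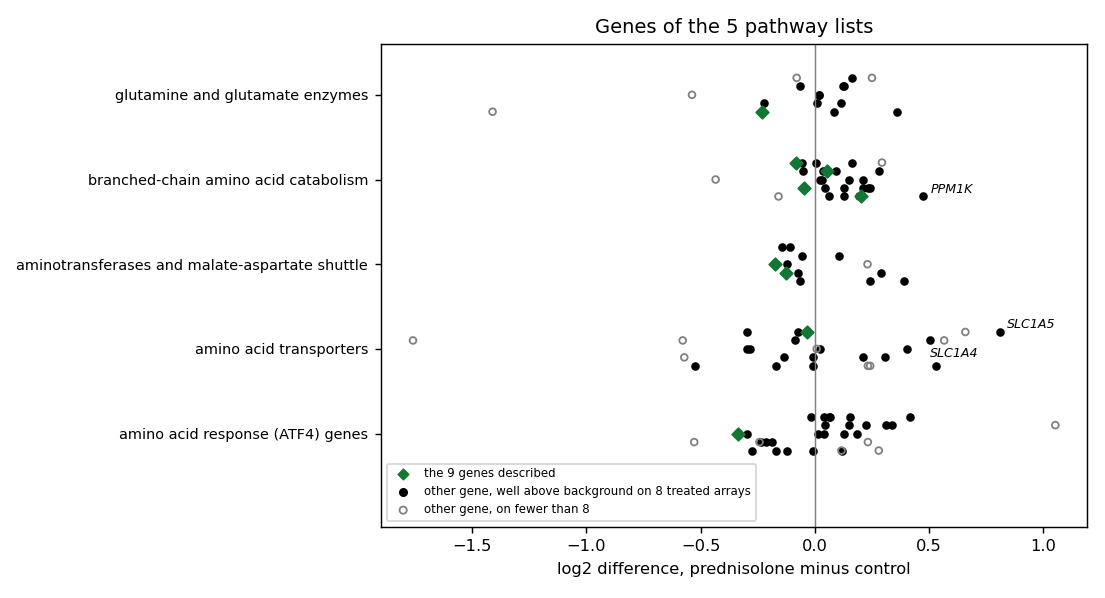
Group difference (prednisolone minus control, log2) of each measured gene in 5 pathway lists, with the 9 genes as green diamonds, other genes well above background on 8 treated arrays as filled circles, and the rest as open circles; vertical offsets within a list only separate points. Named are the filled genes with an unadjusted p under 0.05 (PPM1K, SLC1A4 and SLC1A5), a level met by 3.21% of all genes, and 0 genes passed the adjusted test.

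In the list of glutamine and glutamate enzymes, 15 genes other than GLUL were measured of 17 listed (ALDH4A1 was not), with 10 estimates above 0, 5 below, a median of 0.019 and 0 calls. GFPT1, which uses glutamine to make glucosamine phosphate, was measured in 6 of 7 controls and had the widest difference of that list, -1.41 (95% interval -3.31 to 0.49), with its highest values on C20 (9.28) and P31 (8.59). That difference was -0.80 without C20 and -1.95 without C18, and turned to 0.48 with the marker scores as covariates. NADSYN1 was the 1 gene of the 15 at an unadjusted p under 0.05, beside 3.21% of all genes. Its probe was well above background on 0 of the 8 arrays of treated animals.

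Of the aminotransferases and malate-aspartate shuttle genes, 11 besides GOT1 and GOT2 were measured of 14 listed (SLC25A18 was not), with 5 estimates above 0, 6 below, a median of -0.056 and 0 calls. AADAT, an aminotransferase of the lysine pathway, differed by 0.24 (unadjusted p = 0.094, limma adjusted p = 0.993), and the aspartate and glutamate carrier SLC25A13 by 0.39 (unadjusted p = 0.130). The SLC25A13 value is that of its brighter probe. Its other probe, well above background on 8 treated arrays, had means of 4.63 (n = 7) and 5.20 (n = 8). That probe differed by 0.58 (unadjusted p = 0.044) and also failed the adjustment in limma (adjusted p = 0.993).

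The amino acid response was followed through 30 genes other than ASNS of 33 listed (NUPR1 and FGF21 were not measured). Their estimates were above 0 for 19 and below for 11, with a median of 0.054 and 0 calls. ATF4 had means of 8.16 ± 0.54 (SD, n = 7) and 8.20 ± 0.64 (SD, n = 8). DDIT3, a stress-induced transcription factor downstream of ATF4, differed by 0.41 (95% interval -0.007 to 0.84, unadjusted p = 0.053, limma adjusted p = 0.993), and 7 of 8 treated values exceeded the median of controls. ASNS thus had an estimate below 0 while that of DDIT3 was above 0, and both intervals included 0.

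Among 13 measured genes of the glucocorticoid receptor and muscle regulator list (FOXO1 was not), 4 estimates were above 0, 9 below, the median was -0.038 and 0 passed. KLF15, the regulator of BCAT2 named above, had means of 6.13 ± 0.87 (SD, n = 7) and 6.10 ± 0.91 (SD, n = 8), with a difference of -0.034 (95% interval -0.96 to 0.89). KLF9, a glucocorticoid-induced transcription factor, had means of 13.19 ± 0.34 (SD, n = 7) and 12.98 ± 0.21 (SD, n = 8), with a difference of -0.21 (unadjusted p = 0.182, limma adjusted p = 0.993), and its control median exceeded all 8 treated values. TSC22D3, also known as GILZ, had a value on 7 treated arrays and a difference of -0.32 (95% interval -0.86 to 0.22, unadjusted p = 0.223, limma adjusted p = 0.993).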

How the data were processed

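Gene expression in biceps brachii was measured on 1-dye Agilent bovine oligonucleotide arrays in 7 control and 8 prednisolone-treated animals. The values used are the deposited linear intensity of each spot in the authors' value table. On the 8 treated arrays these matched the scanner's processed signal (background-subtracted and detrended by Feature Extraction 9.5.1.1, per the file headers) with correlations from 0.999789 to 0.999991. On those 8 arrays the table's empty cells were the spots not found, which was not checked for the control arrays. Control scanner files were not used here, so background and saturation flags cover treated arrays only. The submitters' processing notes name R 2.11.1.

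From the deposited intensity, log2 values were taken, spots of a probe averaged, and each array shifted to a common 75th percentile, taken over the 14324 probes measured on every array. The percentiles lay between 10.56 and 10.76 before the shift. Of 21475 probes, 17495 were named through gene number, symbol, synonym, accession or description, with RefSeq names of assembly ARS-UCD2.0, and 3980 were not. The 20894 probes with at least 3 values per group were fitted with limma 3.58.1 in R 4.3.3 (lmFit and eBayes, group as the only term, Benjamini-Hochberg adjustment, threshold 0.05). Exact permutation tests are two-sided. Correlations used values centred within groups, with 100000 permutations within groups and Benjamini-Hochberg adjustment per family. The 15 arrays limit the precision. On simulated data of 20894 probes, the fit recovered 79% of 100 probes changed by 1 on the log2 scale. It recovered 95% of 100 probes changed by 2 on that scale, with 11 false calls. The share of such changes that the fit would find in the measured arrays was not tested.

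The members and lists were chosen with earlier results of these data known. Named were the 9 genes, the 2 genes of each list with the smallest p, KLF15, ATF4, PPM1K, DBT, BCAT1, SLC7A5, SLC1A5 and SLC38A1, and the 2 genes most like each of the 9. Other genes named (AUH, HIBCH, MCEE, ALDH6A1, HIBADH, ECHS1, ACADSB, DLD, PCCB, SLC38A7, PZP and ZNF696) were chosen after their values were seen. A few genes this rule would name are not reported here. Alternatives were quantile normalization, no shift, equal medians, other filters, trend and robust fitting, array weights, marker scores as covariates, the mean of all probes of a gene, and leaving out animals, and those that left out the treated arrays of a slide were added after seeing the data. Slides of control arrays are not known here.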

Additional observations from a re-analysis of the deposited data

Results flagged for a closer look

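Of the 18 groups tested for a lone extreme sample (9 genes in 2 groups), 2 had one, and chance flags about 1 in 20 groups. In controls, ASNS on C20 lay at 10.50 on the log2 scale, far above the other 6 controls, which ended at 9.12. BCAT2 on the same array lay at 9.55, with the other controls ending at 9.08. C20 also had the highest testis germ cell score (4.66), whose part in either value was not tested.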

How the results depend on the processing

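Over 29 alternatives for each of the 9 genes, 0 passed the adjusted test, with adjusted p from 0.758 to 1.0, and 15 of 261 estimates changed sign, all in BCAT2, BCKDK and SLC38A2. For BCAT2 the mean of both probes gave -0.31 and leaving out P29 and P30 gave -0.041. For BCKDK marker scores as covariates gave 0.053. For SLC38A2 the value was 0.014 without C17, C20 and P31, 0.25 with marker scores and 0.099 without P25 and P26. Leaving out single animals gave from -0.14 to 0.11 for BCKDK and from -0.19 to 0.055 for SLC38A2.

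Of 14 other named genes well above background on at least 4 treated arrays, 10 kept their sign. With array weights ATF4 was at -0.055 and KLF15 at 0.036. Without C20 and P31, ATF4 was at -0.13 and KLF15 at 0.018, and without C17 as well they were at -0.21 and 0.27. Marker scores gave 0.48 for GFPT1 and 0.57 for SLC7A5. Quantile normalization gave 0.083 for KLF15. Without P27 and P28, KLF15 was at 0.16 and SLC7A5 at 0.049. Without P29 and P30, ATF4 was at -0.11 and KLF15 at 0.058. Leaving out single animals gave -0.12 to 0.18 for ATF4, -0.25 to 0.19 for KLF15 and -0.64 to 0.033 for SLC7A5. The cause of these changes was not tested. BCAT1, SLC38A1, NADSYN1 and PCK2, well above background on at most 2 treated arrays, are given no difference.

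The count of genes called, 0 with all arrays, ran from 0 to 1 without single animals (ZNF696 without C23, PZP without P31), and was 1 (PZP) without C20 and P31 and 1 without C17, C20 and P31. No paired analysis was possible because the groups share no animal numbers.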
